A study of Mus musculus with 8 samples.

Results

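The genes described here are the leukocyte adhesion molecules *Icam1*, *Vcam1*, *Icam2*, *Sele*, *Selp*, *Pecam1* and *Madcam1*, 7 of the 30406 genes shared by the count matrices of 8 single-cell RNA sequencing libraries of mouse pancreatic islets. They were chosen by gene symbol and followed in endothelial cells, mesenchymal cells, β-cells, α-cells, δ-cells and macrophages. Islets of male C57BL/6 mice, 12 to 16 weeks old, were isolated and, for each of 2 replicates, the islets of 10 mice were pooled and divided over 4 conditions. Intact islets were left untreated, were exposed for 18 h to IL-1β at 10 U/mL together with IFN-γ at 150 U/mL (here "cytokines"), were exposed to the same cytokines with 2 mM NMMA, an inhibitor of nitric oxide synthases, or were exposed to 2 mM NMMA alone. Each condition therefore has 1 library from each pool, and the error of a mean is the spread between 2 pools of mice. Isolated islets have no blood flow, so neither circulating leukocytes nor shear stress reach the vessel cells in culture.

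Leukocytes leave the blood in steps that each use a different adhesion molecule on the vessel wall. The selectins encoded by *Sele* and *Selp* catch rolling leukocytes through carbohydrate ligands, the immunoglobulin family proteins encoded by *Icam1*, *Icam2* and *Vcam1* hold them through the integrins LFA-1, Mac-1 and VLA-4, and PECAM-1 takes part in the passage between endothelial cells. The product of *Madcam1* directs lymphocytes to the vessels of the gut through the integrin α4β7. ICAM-1 is also induced by inflammatory cytokines on many cells that are not endothelial, where it serves as a contact for T cells, and its gene is a textbook target of NF-κB, a factor that IL-1β activates. The comparisons below address which islet cells carry these transcripts, how each responds to the cytokines, and which responses differ when nitric oxide synthesis is blocked.

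In GRCm38 (GENCODE M21), *Icam1* lies at chr9:21015985-21028817 on the plus strand, *Vcam1* at chr3:116109949-116129688 on the minus strand, *Sele* at chr1:164048234-164057677 and *Selp* at chr1:164115264-164150026, both on the plus strand, and *Madcam1* at chr10:79664559-79668537 on the plus strand. *Icam2* at chr11:106377656-106388075 and *Pecam1* at chr11:106654217-106750628 lie on the minus strand of the same chromosome. RefSeq promoter windows of GRCm38.p6, from 250 bases before to 50 bases after the gene start, were found for 4 of the 7 genes. Those of *Icam1* and *Sele* are shown, *Icam1* being the member with the most UMIs and *Sele* a selectin gene that was hardly counted. Capitals mark matches to the κB-type letters GGNNNTTCC on either strand (GGAANNNCC on the other strand), which 18.5% of the 32851 promoter windows of this length hold.
*Icam1*, chr9:21015690-21015989, plus strand: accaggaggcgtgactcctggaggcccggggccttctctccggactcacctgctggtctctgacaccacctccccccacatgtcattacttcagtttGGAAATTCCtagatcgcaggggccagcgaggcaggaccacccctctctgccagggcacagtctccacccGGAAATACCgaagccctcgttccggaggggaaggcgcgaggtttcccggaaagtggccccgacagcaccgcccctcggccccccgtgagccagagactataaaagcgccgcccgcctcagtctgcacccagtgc
*Sele*, chr1:164047984-164048283, plus strand: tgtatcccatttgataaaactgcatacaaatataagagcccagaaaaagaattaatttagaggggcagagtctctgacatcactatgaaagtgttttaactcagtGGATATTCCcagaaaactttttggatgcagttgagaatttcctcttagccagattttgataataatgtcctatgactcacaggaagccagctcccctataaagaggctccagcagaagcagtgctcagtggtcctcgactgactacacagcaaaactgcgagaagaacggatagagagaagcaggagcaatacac
Positions count from the RefSeq gene start, which for *Icam1* lies upstream of the GENCODE start given above. The *Icam1* window holds GGAAATTCC at position -153, which matches the κB-type letters on both strands, and GGAAATACC at -84. It also holds a GAS-type match (letters TTCNNNGAA, found in 8.3% of windows), TTCCCGGAA, at -42. The *Sele* window holds GGATATTCC at -145, an overlapping GAS-type match, TTCCCAGAA, at -140, and an IRF-type match (letters GAAANNGAA or TTCNNTTTC, in 8.56% of windows), GAAAAAGAA, at -208. The *Selp* window has 1 κB-type match, at -14, and the *Madcam1* window has 2, at -83 and -70. Letter matches describe these windows and are not binding measurements.

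The libraries held 26549922 to 50731370 UMIs, a UMI being 1 captured RNA molecule counted near its 3′ end, and at most 2 cell barcodes were shared by any 2 libraries. Of 10876 barcodes kept, 282 were endothelial, 220 mesenchymal, 6350 β-, 646 α-, 334 δ-cells and 324 macrophages. These classes were rebuilt here from marker genes, with the 7 adhesion genes left out of the clustering, so each name stands for an endothelial-like, mesenchymal-like or other "-like" class. Another 2311 barcodes were left unnamed, and 274 near the α- and δ-cells were led by insulin. An unnamed cluster of 706 barcodes with few UMIs scored highest for β-cell markers. It held 15 and 194 with cytokines, 32 and 455 with cytokines and NMMA, and 0 to 5 in the others. Its part in the β-cell results was not tested. Endothelial markers made up 5510 to 11880 CPM in endothelial cells (CPM being UMIs per sum of a class in a library, scaled to the same total for all sums) and at most 323.8 in any sum of the other classes. Endothelial cells of the cytokine conditions, all but 1, fell into another cluster than those of the untreated and NMMA conditions, and most β-, α- and δ-cells were also in other clusters, while mesenchymal cells formed 1 cluster. Macrophages of the cytokine conditions were divided over a cluster shared with the untreated cells and another that held only 2 untreated cells. With cytokines, 10 and 14 cells were in the shared cluster, with 0 and 1 *Icam1* UMIs, and 23 and 22 in the other, with 34 and 15. The cytokine conditions yielded few endothelial cells, with 15 and 23 per library for cytokines and 14 and 33 for cytokines with NMMA, against 47 to 52 in the other conditions. A further cluster of 80 barcodes with few UMIs, whose leading genes include *Fabp4* and *Egfl7*, scored highest for endothelial markers but was left unnamed by a rule set after the data were seen. It held 7 barcodes in each cytokine library, 5 and 12 with cytokines and NMMA, and 2 to 21 in the others, and with it added *Icam1* and *Icam2* had log2 changes of 2.81 and 1.04 with cytokines in endothelial cells, both still called. Of δ-cells, the cytokine libraries held 7 and 12. The library with 7 was left out of tests and means, so δ-cell values for cytokines rest on 1 library. In each δ-cell test that uses it, this library is assumed to vary like the other groups, whose spread supplies the SE and the p. The δ-cell sums also held markers of PP-cells, the pancreatic polypeptide cells, at 97660 to 128000 CPM untreated and 23640 with cytokines. Their δ-cell markers stood at 61110 to 77690 and 25190. In untreated α-cells PP-cell markers stood at 46220 to 47030 CPM, against 176700 to 195100 for α-cell markers. The part of PP-cells in the results was not tested. Macrophage markers stood at 1430 CPM in the endothelial sum of cytokines with NMMA replicate 1, against 1.85 to 15.9 in the other 7, and their part in the results for that sum was not tested.

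The 7 genes differed widely in abundance. Over the 6 classes, *Icam1* had 15535 UMIs, *Pecam1* 3521, *Icam2* 947 and *Vcam1* 525, while *Madcam1* had 34, *Sele* 5 and *Selp* 4. The cell class that carried a gene also differed. Of the UMIs in the 6 classes, endothelial cells held 97.6% for *Icam2* and 91.6% for *Pecam1*. Macrophages held 68.2% and mesenchymal cells 26.3% for *Vcam1*, and β-cells, which make up most of the cells, held 81.9% for *Icam1*. All kept barcodes together held 652 *Vcam1* UMIs, 964 of *Icam2*, 3620 of *Pecam1* and 15971 of *Icam1*, so part of the *Vcam1* UMIs lay outside the 6 classes. These counts are of transcript ends and were not scaled by length, so they say which classes hold a gene and do not rank the genes by expression.

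*Icam1* rose with cytokines in all 6 cell classes by the edgeR test, the smallest log2 changes being those of macrophages and endothelial cells, although the calls in macrophages and mesenchymal cells did not hold under every alternative. Levels below are CPM of the class in a library. In untreated β-cells *Icam1* stood at 0.341 and 1.03 (12 and 16 UMIs in 1660 and 606 cells). With cytokines it stood at 226 and 185 (6627 and 3070 UMIs in 1136 and 573 cells). The groups do not overlap, and the log2 change was 8.64 ± 0.44 (SE, n = 2 libraries per condition), with an adjusted p of 1.18e-05 in edgeR's quasi-likelihood test. In β-cells 23.7% of all genes tested were called higher and 22.4% lower with cytokines, so a call alone sets no gene apart there. The level in untreated β-cells differed between the pools, and the log2 change was 7.89 without untreated replicate 1 and 9.40 without untreated replicate 2.

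α-cells gave the same picture from a floor of almost no transcripts. In untreated α-cells 0 and 1 *Icam1* UMIs were counted in 95 and 94 cells, and with cytokines 209 and 186 UMIs in 51 and 71 cells, at levels of 243 and 133 CPM. The ratio of the summed counts was 513, with a counting interval from 91.6 to 20300 that the single untreated UMI sets. The edgeR log2 change was 9.24 ± 0.83 (adjusted p = 0.000679, with 13.8% of genes higher and 9.52% lower in this class), 8.57 without untreated replicate 1, 11.3 without untreated replicate 2 and 8.44 with finer clusters. In δ-cells the untreated levels were 3.07 and 1.52, and the 1 library of 12 cytokine-treated cells stood at 256. The library of 7 cells that was left out stood at 357. The log2 change in δ-cells was 6.60 ± 0.42 (adjusted p = 2.39e-09, with 4.57% of genes higher and 1.61% lower), an error that holds no spread between cytokine libraries.

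In endothelial cells, the class in which ICAM-1 acts in leukocyte arrest, *Icam1* was already present without cytokines, at 14.0 and 42.3 CPM (7 and 29 UMIs). It stood at 135 and 231 with cytokines (29 and 90 UMIs), above both untreated libraries. A log2 change of 2.85 ± 0.43 passed the test (adjusted p = 0.000968, with 4.65% of genes higher and 1.73% lower in endothelial cells). Without untreated replicate 2, the higher of the untreated libraries, it was 3.92. Macrophages, which also held *Icam1* at rest, had 22.5 and 4.17 CPM untreated and 73.4 and 41.9 with cytokines. Their log2 change was 2.50 ± 0.57 (adjusted p = 0.0213, with 3.82% of genes higher and 0.795% lower). This call was lost with DESeq2 (adjusted p = 0.0782) and without cytokines replicate 1 (adjusted p = 0.182) or untreated replicate 2 (1.49, adjusted p = 0.252), and the change was 3.82 without untreated replicate 1. In mesenchymal cells *Icam1* had 2 and 0 UMIs untreated and 28 and 40 with cytokines, or 6.72 and 0 against 182 and 130 CPM. The ratio of the sums was 51.5 (counting interval 13.7 to 434), and the log2 change was 5.73 ± 1.13 (adjusted p = 0.0473, with 1.73% of genes higher and 0.114% lower). Markers of other cells also differed between these sums, where ductal markers stood at 2030 to 2923 CPM untreated and 65.1 to 283.5 with cytokines, and β-cell markers at 5954 to 46170 and 2433 to 2997. Their part in the result was not tested. Of the 8 fits that each left out 1 library, 2 kept the mesenchymal call, those without either library of cytokines with NMMA. The change was 8.77 without untreated replicate 1 and 4.59 without untreated replicate 2, and the call was also lost when sums were scaled by total UMIs (adjusted p = 0.0803).

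**Figure D1:**
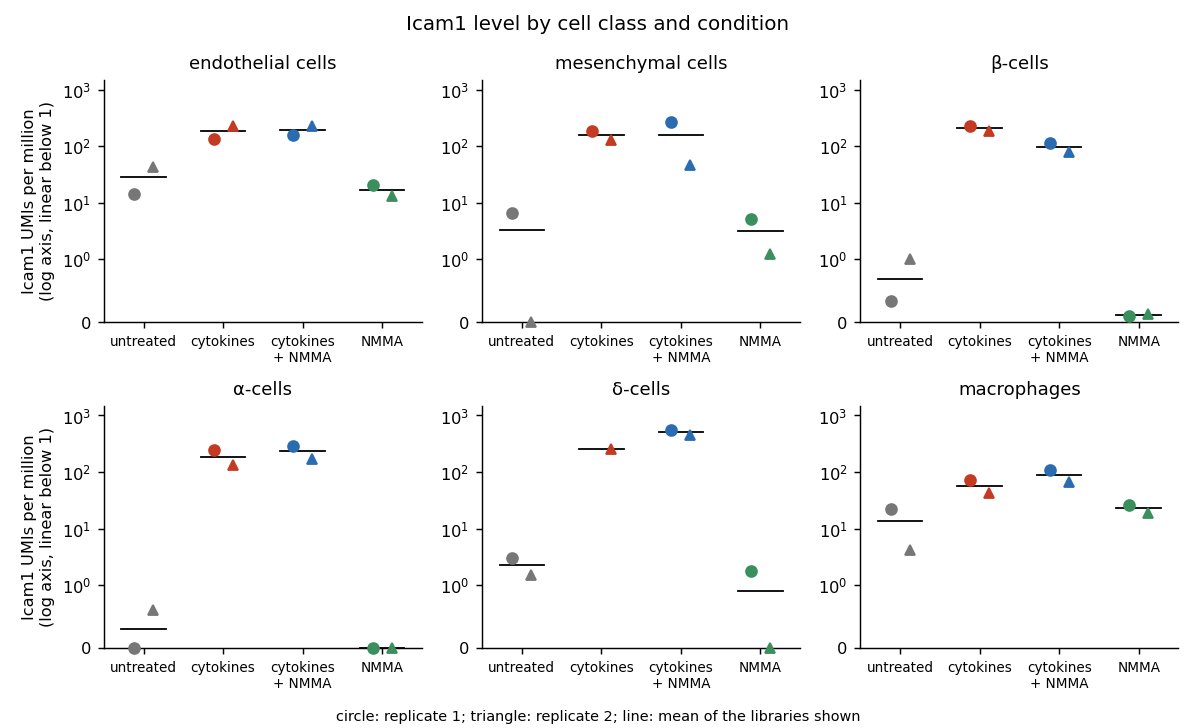
*Icam1* CPM (UMIs scaled to the class total) in each library, with 1 panel per cell class and the 4 conditions along the x axis. The y axis is logarithmic above 1 and linear below it. Circles are replicate 1, triangles replicate 2 and lines the mean of the libraries shown. In all 6 panels the cytokine conditions lie above the untreated and NMMA conditions, and untreated endothelial cells (14.0 and 42.3) lie above untreated β-cells (0.341 and 1.03).

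The order of the classes by *Icam1* level therefore differed between conditions. Untreated, endothelial cells came first with 28.2 ± 19.98 CPM (SD, n = 2), followed by macrophages with 13.3 ± 12.9, mesenchymal cells with 3.36 ± 4.75, δ-cells with 2.29 ± 1.10, β-cells with 0.686 ± 0.487 and α-cells with 0.298 ± 0.422. Neighbours in this order overlapped except for δ- and β-cells. With cytokines δ-cells came first (256, 1 library), followed by β-cells with 206 ± 29.0, α-cells with 188 ± 77.8, endothelial cells with 183 ± 67.8 and mesenchymal cells with 156 ± 36.7, each of these 4 overlapping its neighbour. Macrophages came last with 57.6 ± 22.3, below both mesenchymal libraries. At 18 h of cytokines, β-, α- and endothelial cells thus held *Icam1* at levels whose ranges overlapped, while the untreated levels of endothelial cells were above those of β-cells in both libraries. Levels of different classes share a library, and no test was made between them.

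The difference between the responses was tested as an interaction of class and condition. The log2 change of *Icam1* with cytokines was smaller in endothelial cells than in β-cells, with a difference of -5.37 ± 0.47 (adjusted p = 3.08e-27 by edgeR, with 6.3% of 13262 genes differing either way) and kept its call in all 8 fits that left out 1 library, with -6.03 without cytokines replicate 2. In macrophages the difference from β-cells was -5.83 ± 0.77 (adjusted p = 1.49e-11, against 4.35% of genes), with -4.11 without untreated replicate 1 and -7.88 without untreated replicate 2. The differences from β-cells were not called in mesenchymal cells (-2.51, interval of ± 2 SE from -5.18 to 0.15, adjusted p = 0.591, against 1.62% of genes), α-cells (1.21, from -1.18 to 3.59, adjusted p = 0.689, against 4.45%) or δ-cells (-1.92, from -3.61 to -0.23, adjusted p = 0.305, against 3.08%). Nor were they between mesenchymal and endothelial cells (2.91, from -0.94 to 6.75, against 0.0407% of genes) or between macrophages and endothelial cells (-0.25, from -2.72 to 2.22, against 1.66%), both with an adjusted p of 1. These intervals are wide and leave room for differences of many-fold. In the interaction fits edgeR takes much of a gene's spread from other genes. The smallest p-values above therefore do not measure variation between 2 pools.

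**Figure D2:**
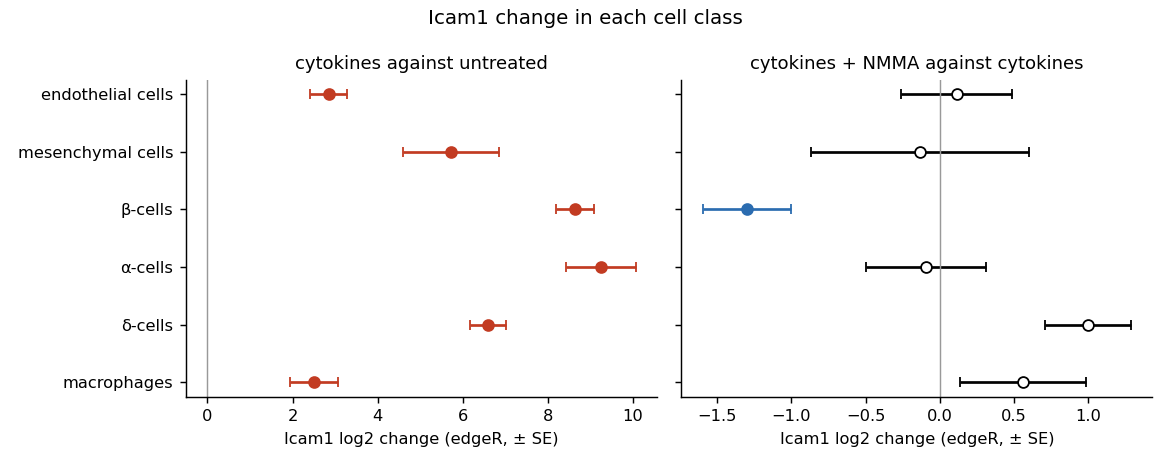
Log2 change of *Icam1* in each cell class (edgeR, bars ± 1 SE), for cytokines against untreated (left) and for cytokines with NMMA against cytokines (right). Filled points passed an adjusted p of 0.05 and open points did not. On the left all 6 classes lie above 0, from 2.50 in macrophages to 9.24 in α-cells, and on the right the β-cell value of -1.30 is the one that passed.

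In β-cells with cytokines *Icam1* was spread over many cells, where 1 cell held at most 1.37% and 1.79% of the UMIs of a library. Single cells weighed more in small classes. In the δ-cell library with cytokines 24 of 59 UMIs came from 1 of 12 cells. In mesenchymal cells of cytokines with NMMA replicate 1, 37 of 51 came from 1 of 16 cells. After thinning each cell to a common depth of 9500 UMIs, 51.8% (95% Clopper-Pearson interval 48.8 to 54.7) and 48.4% (43.9 to 53.0) of β-cells had an *Icam1* UMI with cytokines. Untreated, 5 of 1596 and 1 of 515 β-cells had one, which is 0.313% and 0.194%. Without thinning the cytokine share was 60.8% (mean of 2 libraries) at median depths of 24700 and 27300 UMIs per cell. α-cells thinned to 9000 UMIs had a share of 63.6% (47.8 to 77.6) and 41.4% (28.6 to 55.1), against 0 of 78 cells, which allows a share of up to 3.85%, and 1 of 83. Of the 12 δ-cells, 6 had an *Icam1* UMI at 7000 UMIs per cell. Endothelial cells thinned to 4500 UMIs had shares of 46.7% (21.3 to 73.4) and 43.5% (23.2 to 65.5) with cytokines, and of 4.55% (0.555 to 15.5) and 10.9% (3.62 to 23.6) untreated. Mesenchymal cells, at a depth of only 1000 UMIs, had 25.0% and 20.8% with cytokines, against 1 of 26 and 0 of 34 cells untreated. Macrophages, at 1500 UMIs, had 3.70% and 6.90% with cytokines and 6.45% and 1.69% untreated. Their rise in level is not visible in the share at this depth, while without thinning their mean share was 40.8% with cytokines. Depths differ between classes, so these shares are compared within a class.

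**Figure D3:**
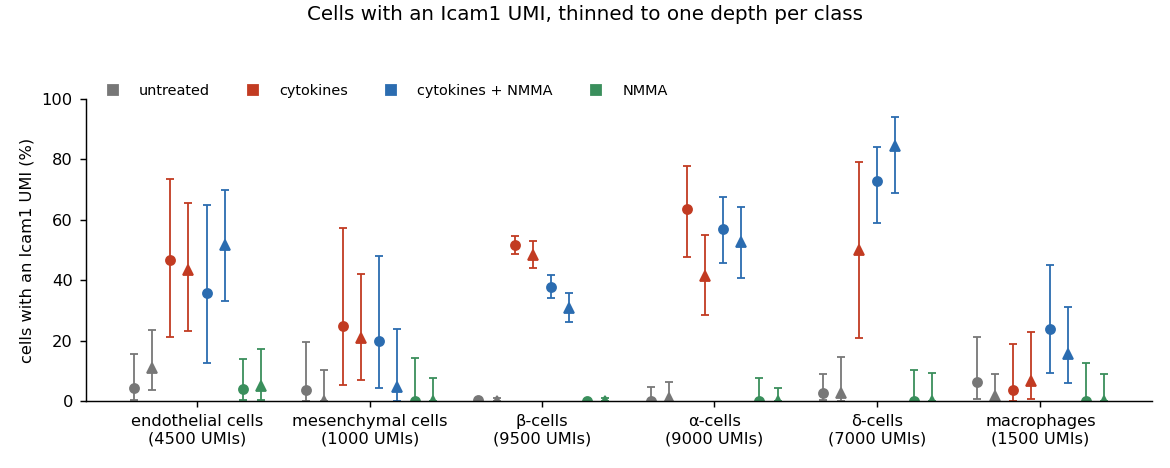
Percent of cells with at least 1 *Icam1* UMI per library, after thinning to the depth given under each class. Circles are replicate 1, triangles replicate 2, colours the conditions and bars exact 95% Clopper-Pearson intervals. β-cells have the narrowest intervals and fall from 51.8 and 48.4% with cytokines to 37.9 and 30.8% with NMMA added, while δ-cells with NMMA added have the highest shares, 72.7 and 84.2%.

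Within β-cells, *Icam1* and *Nos2*, which encodes the inducible nitric oxide synthase, were found together in many cells. Among cytokine-treated β-cells with a *Nos2* UMI, 69.6% and 70.7% also had an *Icam1* UMI, against 37.1% and 33.7% of those without one, in replicates 1 and 2. With NMMA added the shares were 46.7% and 38.0% against 20.7% and 19.6%. Both genes are read from the same thinned cells, so these values are a description. A β-cell cluster led by heat shock genes (*Hspa1a*, *Hspa1b*, *Hspb1*), present in all 4 conditions, held *Icam1* at 29.1 and 22.6 CPM with cytokines. The largest β-cell clusters of the same libraries held it at 240 and 218. With cytokines and NMMA the heat shock-led cluster stood at 29.6 and 33.6, and the largest clusters of those libraries at 121 and 84.0.

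RNA of lysed β-cells can reach other droplets, so *Icam1* was also set against insulin. The part of such RNA in these counts was not tested. If the *Ins1* and *Ins2* UMIs of a class had come with *Icam1* at the β-cell ratio of the same library, cytokine-treated endothelial cells would have held 0.665 *Icam1* UMIs, against 119 counted. The same figures were 0.623 against 68 in mesenchymal cells, 1.75 against 50 in macrophages, 50.7 against 395 in α-cells and 4.43 against 97 in δ-cells, where the library of 7 cells is included. An antisense gene within *Icam1*, *Gm47079*, had 34 UMIs with cytokines, and a neighbour on the same strand 556 bases away, *Icam4*, had 11.

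Adding NMMA to the cytokines lowered *Icam1* in β-cells, while the change was not called in the other 5 classes. In β-cells the level fell from 226 and 185 with cytokines to 113 and 79.9 with cytokines and NMMA, without overlap. The log2 change was -1.30 ± 0.30 (adjusted p = 0.0232). In this comparison 10.4% of genes in β-cells were called higher and 9.06% lower. The call was lost without cytokines replicate 1 (-1.15) or without cytokines with NMMA replicate 2 (-1.06), each with an adjusted p of 0.118. In α-cells the levels were 243 and 133 with cytokines and 291 and 172 with NMMA added, and the change of -0.09 ± 0.40 was not called (adjusted p = 0.916, with 5.34% of genes higher and 5.98% lower). Its sign turned to 0.32 when sums were scaled by total UMIs, a scaling that moved the median of all α-cell genes by 0.36 in this comparison and that of β-cell genes by 0.21. In δ-cells the level was 256 with cytokines (1 library, assumed to vary like the other groups) and 556 and 448 with NMMA added. Their log2 change of 1.0 ± 0.29 was not called (adjusted p = 0.0814, with 0.8% of genes higher and 1.46% lower). With the replicate as a block it was 0.88 and was called higher (adjusted p = 0.0324).

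The non-endocrine classes showed no called change of *Icam1* with NMMA. Endothelial cells stood at 160 and 228 with cytokines and NMMA (log2 change 0.11 ± 0.38, adjusted p = 0.999), mesenchymal cells at 271 and 46.7 (-0.13 ± 0.73, adjusted p = 1) and macrophages at 109 and 67.1 (0.56 ± 0.43, adjusted p = 0.905). Intervals of ± 2 SE ran from -0.64 to 0.87, from -1.60 to 1.33 and from -0.29 to 1.41. For this comparison 0% of genes were called higher and 0% lower in endothelial and in mesenchymal cells by edgeR (365 and 170 genes had an unadjusted p under 0.05), and 0.116% were called higher and 0% lower in macrophages.

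Whether these responses to NMMA differ from that of β-cells was tested in the interaction fits, a test added after the values had been seen. The log2 change of *Icam1* was higher than in β-cells by 1.42 ± 0.29 in endothelial cells (adjusted p = 0.000328, against 1.53% of genes differing), by 1.24 ± 0.20 in α-cells (adjusted p = 0.000142, against 1.94%), by 2.31 ± 0.27 in δ-cells (adjusted p = 1.87e-14, against 2.12%, with 1 cytokine library that is assumed to vary like the others) and by 1.83 ± 0.37 in macrophages (adjusted p = 0.000371, against 0.874%). In mesenchymal cells the difference of 0.91 (-0.02 to 1.85) was not called (adjusted p = 0.948, against 0.267%). These p-values, most of all that of δ-cells, rest on a spread shared across genes and do not measure variation between 2 pools. The calls also rest on the library as a block, which compares classes within a library. Without the block the differences were 1.37, 1.19, 2.29 and 1.80 and none was called. The endothelial difference was also lost without cytokines replicate 1 (0.97) or cytokines with NMMA replicate 2 (0.70), and was 2.10 without cytokines replicate 2.

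With cytokines and NMMA, *Icam1* stood above both untreated libraries in every class. The log2 change against untreated was 7.34 ± 0.43 in β-cells (adjusted p = 2.25e-05, with 12.9% of genes higher), 9.15 ± 0.82 in α-cells (adjusted p = 0.0011, with 6.17%), 7.60 ± 0.36 in δ-cells (adjusted p = 6.15e-12, with 6.31%), 2.96 ± 0.43 in endothelial cells (adjusted p = 0.00063, with 5.01%) and 3.06 ± 0.54 in macrophages (adjusted p = 0.0032, with 5.16%). In mesenchymal cells 5.6 ± 1.13 narrowly missed the threshold (adjusted p = 0.0501, with 1.92% of genes higher) and passed it with the replicate block (5.43, adjusted p = 0.00041), with DESeq2 (adjusted p = 0.00102) and without either library of cytokines with NMMA (4.08 and 6.37). Leaving out untreated replicate 1 or 2 moved these values to 6.58 and 8.07 in β-cells, 8.47 and 11.2 in α-cells and 4.38 and 2.05 in macrophages, and to 4.05 in endothelial cells without untreated replicate 2. This comparison and the one with cytokines alone share the untreated libraries. NMMA alone gave levels of 0.101 and 0.136 in β-cells (2 UMIs in each library), of 20.6 and 13.0 in endothelial cells and of 26.3 and 19.0 in macrophages. In α-cells no UMI was counted in either library. No gene was called for NMMA against untreated in any class by edgeR, where 149 genes in endothelial cells, 70 in mesenchymal, 935 in β-, 366 in α-, 275 in δ-cells and 139 in macrophages had an unadjusted p under 0.05. DESeq2 called 10 in β-cells and 0 elsewhere. The *Icam1* change in β-cells was -2.28 ± 0.74 (adjusted p = 0.552).

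*Vcam1*, whose product binds the integrin VLA-4, was a gene of macrophages and mesenchymal cells here and was nearly missing from endothelial cells. The 8 endothelial sums held 0 to 4 *Vcam1* UMIs each, 9 in all, with 0 and 2 UMIs after cytokines. Macrophages held it at 107 and 65.4 CPM untreated and at 225 and 81.1 with cytokines, a range that overlaps. The log2 change of 0.97 ± 0.43 was not called (adjusted p = 0.32). With the replicate block it was 0.87 and was called higher (adjusted p = 0.047). In mesenchymal cells *Vcam1* stood at 20.2 and 22.5 untreated, at 247 and 48.9 with cytokines and at 15.9 and 137 with NMMA added. The change with cytokines was 2.87 ± 1.11 (adjusted p = 0.455). A few cells set these mesenchymal values: in cytokines replicate 1, 31 of the 38 UMIs came from 1 of the 13 cells. Unthinned, 24.3 ± 2.89% of untreated and 33.3% of cytokine-treated macrophages had a *Vcam1* UMI (12 of 36 and 11 of 33 cells with cytokines). In the endocrine classes *Vcam1* had 16 UMIs in β-, 4 in α- and 0 in δ-cells over all libraries.

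*Icam2*, a ligand of LFA-1 that resting endothelium carries, was almost confined in UMIs to endothelial cells and rose there with cytokines. Its levels were 175 and 213 CPM untreated and 452 and 275 with cytokines, without overlap. The log2 change was 1.06 ± 0.27 (adjusted p = 0.023). With NMMA added the levels were 366 and 357 and the change against untreated was 1.12 ± 0.27 (adjusted p = 0.0146), and NMMA alone gave 244 and 161. The call for cytokines is a fragile one. It was lost with DESeq2 (adjusted p = 0.0562), with total UMI scaling (0.88, adjusted p = 0.0751), with a minimum of 20 cells per sum (0.74) and without untreated replicate 1 (0.93), untreated replicate 2 (1.24) or cytokines replicate 1 (0.74). The call with NMMA added was lost with total UMI scaling (0.89, adjusted p = 0.0638) and without untreated replicate 1 (0.98) or cytokines with NMMA replicate 2 (1.10). Thinned to 4500 UMIs, 48.8 ± 4.75% of untreated and 75.9 ± 15.2% of cytokine-treated endothelial cells had an *Icam2* UMI. In β-cells, which should lack it, the mean share was at most 0.275% in any condition at a depth of 9500 UMIs, with median depths of 20800 to 31200 UMIs before thinning against 10800 to 17000 in endothelial cells. A neighbour on the opposite strand 98 bases away, *Prr29*, had 319 UMIs in cytokine-treated β-cells, where *Icam2* had 4.

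*Pecam1*, a marker of endothelial cells, was their most counted adhesion gene. It stood at 965 and 949 CPM untreated, 816 and 606 with cytokines, 596 and 607 with cytokines and NMMA, and 1158 and 1065 with NMMA alone. On this scale the libraries with cytokines lie below those without, but with TMM scaling, which centres on the bulk of the genes, the log2 changes were -0.25 ± 0.21 (adjusted p = 0.635) with cytokines and -0.45 ± 0.21 (adjusted p = 0.298) with cytokines and NMMA, and neither was called. With total UMI scaling they were -0.44 and -0.67, also not called (adjusted p of 0.257 and 0.0654). That scaling moved the median of all endothelial genes by -0.20 and -0.23. Of endothelial cells, 94.5 ± 4.54% had a *Pecam1* UMI untreated and 92.3 ± 1.43% with cytokines, after thinning.

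**Figure D4:**
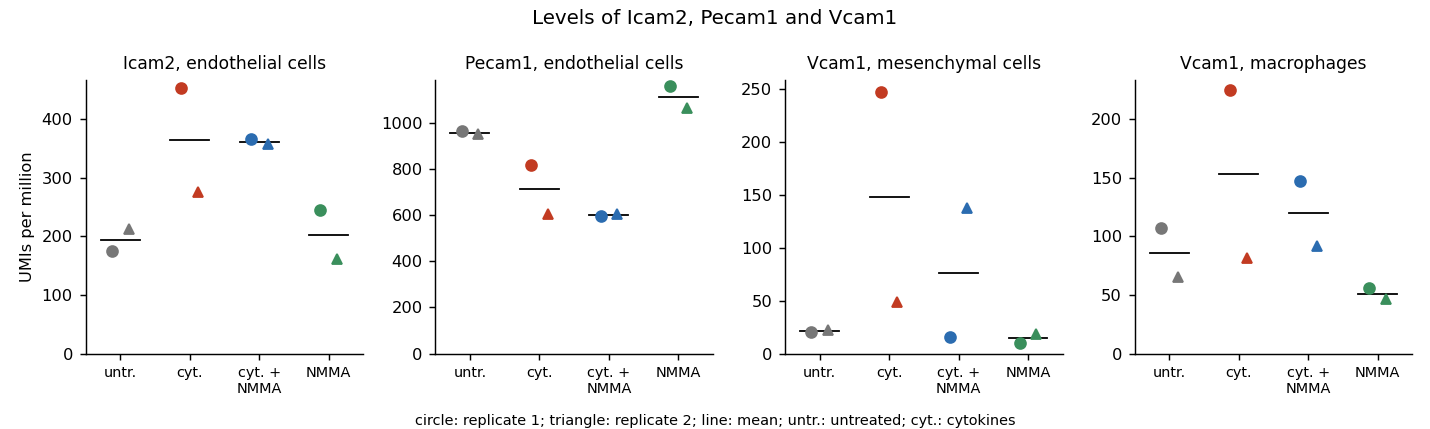
CPM of *Icam2* and *Pecam1* in endothelial cells and of *Vcam1* in mesenchymal cells and macrophages, for untreated (untr.), cytokines (cyt.), cytokines with NMMA and NMMA alone. Circles are replicate 1, triangles replicate 2 and lines the mean, on linear axes from 0. *Icam2* is above both untreated libraries in all 4 libraries with cytokines, *Pecam1* is below them, and the 2 *Vcam1* libraries with cytokines lie far apart in mesenchymal cells (247 and 48.9).

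*Pecam1* also appeared at a low level in endocrine cells when cytokines and NMMA were combined. In β-cells it had 19 and 6 UMIs untreated, 19 and 19 with cytokines, 59 and 44 with cytokines and NMMA, and 9 and 10 with NMMA alone. These are 0.540 and 0.386, 0.649 and 1.15, 3.22 and 3.80, and 0.454 and 0.678 CPM. The libraries with cytokines and NMMA stand above the other 6. The log2 change was 2.85 ± 0.40 against untreated (adjusted p = 0.000989) and 1.79 ± 0.38 against cytokines (adjusted p = 0.0137). The second call was lost without cytokines replicate 1 (1.39, adjusted p = 0.0908) or without either library of cytokines with NMMA (1.88 and 1.68, adjusted p of 0.057 and 0.0716). With cytokines alone the change of 1.07 ± 0.42 was not called (adjusted p = 0.0635) and was called higher with the replicate block (0.97, adjusted p = 0.0487) and without cytokines replicate 1 (1.46, adjusted p = 0.0396). In α-cells, where *Pecam1* was too low to pass the filter of the test, 0 UMIs were counted untreated, 2 and 1 with cytokines, 17 and 13 with cytokines and NMMA and 1 and 2 with NMMA. The summed level with cytokines and NMMA was at least 8.2-fold higher than untreated, taking 3 UMIs over the untreated group as its floor, and 6.31 times that with cytokines (counting interval 1.96 to 32.3). DESeq2, which tested the gene in α-cells, called it higher against untreated (6.18, adjusted p = 0.0264). In δ-cells it had 2 and 1 UMIs untreated, 3 with cytokines (12 cells), 13 and 16 with cytokines and NMMA and 6 and 1 with NMMA. The change against untreated was 3.11 ± 0.83 (adjusted p = 0.0194). This call was lost with DESeq2 (adjusted p = 0.462) and without any 1 of the untreated libraries (3.23 and 3.03) or the libraries with cytokines and NMMA (3.36 and 2.78).

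The *Pecam1* response to NMMA differed between endothelial and β-cells in the interaction fit, where 1.53% of genes differed. This test too was added after the values had been seen and has the library as a block. The log2 change of cytokines with NMMA against cytokines was lower in endothelial cells, with a difference of -2.06 ± 0.35 (adjusted p = 3.42e-06) and of -1.44 without cytokines replicate 1, where the call was lost (adjusted p = 0.103). The β-cell UMIs were spread over cells: the 59 UMIs of replicate 1 came from 50 cells and the 44 of replicate 2 from 36. The unthinned share of β-cells was 1.07 ± 0.11% untreated, 2.27 ± 1.23% with cytokines and 7.88 ± 0.20% with cytokines and NMMA. At 9500 UMIs it was 0.413 ± 0.036%, 1.0 ± 0.65% and 2.96 ± 1.25%. In α-cells with cytokines and NMMA the unthinned share was 13.3 ± 1.16% and in δ-cells 24.5 ± 7.80%. Set against endothelial RNA, the untreated β-cell count of 25 equals the 24.9 that the endothelial markers of those sums would bring at the endothelial ratio of *Pecam1* to the markers. With cytokines and NMMA 103 were counted against 9.26, in α-cells 30 against 2.22 and in δ-cells 29 against 2.07. *Icam2* did not move with *Pecam1* in these sums, with 6 UMIs in β-, 0 in α- and 2 in δ-cells, where the endothelial ratio of *Icam2* to *Pecam1* would give 62.1, 18.1 and 17.4. The endothelial markers themselves stood at 5.47 to 5.83 CPM in untreated β-cells and at 3.11 to 3.20 with cytokines and NMMA. The source of the *Pecam1* UMIs in endocrine cells was not tested.

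**Figure D5:**
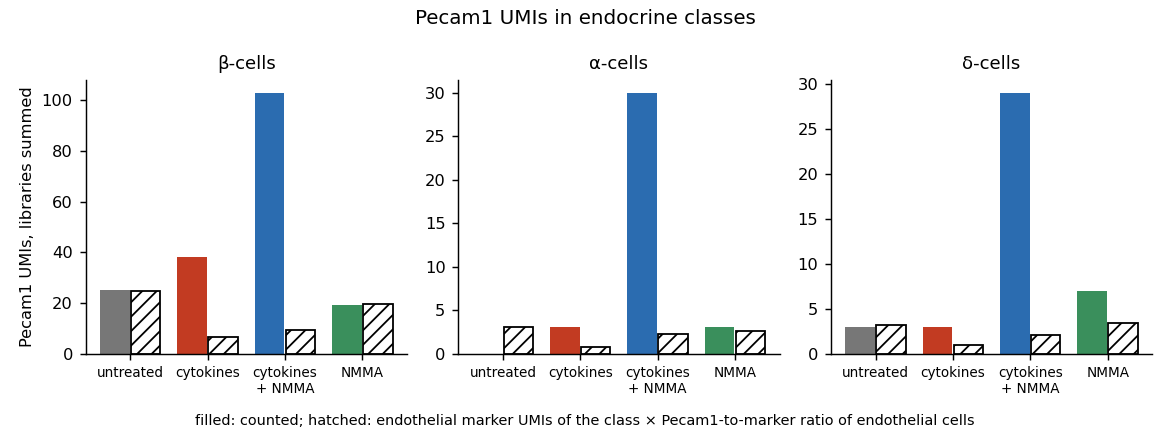
*Pecam1* UMIs counted in β-, α- and δ-cells per condition, both libraries summed (filled bars), beside the number that the endothelial marker UMIs of the same sums would bring at the *Pecam1*-to-marker ratio of endothelial cells (hatched bars), on linear axes from 0. The pairs of bars are close in untreated β-cells (25 and 24.9) and far apart with cytokines and NMMA (103 and 9.26 in β-cells, 30 and 2.22 in α-cells, 29 and 2.07 in δ-cells).

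The selectin genes were hardly detected. *Sele* had 0 UMIs in 7 of the 8 endothelial sums and 3 in cytokines with NMMA replicate 2, all from 1 cell, and *Selp* had the same counts, also with its 3 UMIs in 1 cell. A count of 0 allows up to 14.0 CPM in cytokines replicate 1 and 7.70 in cytokines replicate 2, against levels of 135 and 231 for *Icam1* in the same sums. In the 2 libraries with cytokines alone, *Sele* and *Selp* were thus not detectable in endothelial cells at this depth, and neither gene passed the filter of the test in any class. Elsewhere *Sele* had 2 UMIs, both in mesenchymal cells, and *Selp* 1 in β-cells. *Madcam1* had 28 of its 34 UMIs in β-cells and 0 in endothelial cells. In β-cells it had 3 and 0 UMIs untreated, 21 and 3 with cytokines, 0 and 1 with cytokines and NMMA and 0 with NMMA. The ratio of the sums for cytokines against untreated was 8.85 (counting interval 2.69 to 45.9), but 21 of the 24 cytokine UMIs were from 1 library, and the gene did not pass the filter. *Tpgs1* lies 832 bases from *Madcam1* on the same strand and had 1330 UMIs in cytokine-treated β-cells.

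Over the 6 classes, 7 tests of the 7 genes were called for cytokines against untreated, all higher: *Icam1* in each class and *Icam2* in endothelial cells. Of all genes tested, the share called higher in this comparison ran from 1.73% in mesenchymal cells to 23.7% in β-cells. For cytokines with NMMA against untreated 8 were called, all higher, namely *Icam1* in 5 classes, *Icam2* in endothelial cells and *Pecam1* in β- and δ-cells. There the share of all genes called higher ran from 1.92% in mesenchymal cells to 12.9% in β-cells. Between cytokines with and without NMMA 2 were called, both in β-cells, *Icam1* lower and *Pecam1* higher. Of all β-cell genes 10.4% were called higher and 9.06% lower in this comparison. These counts of calls are from fits without the replicate block. With the block, described at the end, more tests were called in each of these comparisons. Of the 7 genes, 3 passed the filter on low counts in endothelial cells, 2 each in mesenchymal, β- and δ-cells and macrophages, and 1 in α-cells.

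Genes that work with these molecules were read from 3 lists, beside a check that the classes responded to the cytokines. *Irf1*, which encodes a transcription factor induced by IFN-γ, was called higher in all 6 classes with cytokines, with log2 changes from 3.21 ± 0.13 in β-cells to 4.87 ± 0.44 in mesenchymal cells and of 4.47 ± 0.30 in endothelial cells.

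Leukocyte partners, the integrins and selectin ligands on the other side of the contact, were tested mostly in macrophages, where 8 of 13 passed the filter and none was called with cytokines. *Itgb2*, the β-chain of LFA-1 and Mac-1, had a log2 change of 0.79 ± 0.23 (adjusted p = 0.0631) and *Cd44*, a hyaluronan receptor, of 0.79 ± 0.27 (adjusted p = 0.146). With the replicate block both were called higher (adjusted p of 0.00751 and 0.0237). With cytokines and NMMA *Itgb2* was called higher by edgeR (0.83 ± 0.23, adjusted p = 0.0377) but not by DESeq2. In β-cells 1 of 3 was called, *Itgb1*, which encodes the β1 integrin chain (0.58 ± 0.16, adjusted p = 0.0172), in a class where 23.7% of all genes were called higher. In endothelial cells the 2 lowest p-values of the 3 genes tested were those of *Cd38* (-1.16 ± 0.37, adjusted p = 0.0771) and *Cd44* (1.21 ± 0.64, adjusted p = 0.375), and *Cd38* was called lower with the replicate block (adjusted p = 0.0324).

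Other adhesion and junction genes of the vessel wall showed no call in endothelial cells with cytokines (12 of 20 tested, median -0.21). The 2 lowest p-values were those of *Jam3* (-1.10 ± 0.38, adjusted p = 0.109) and *Cd34* (-0.55 ± 0.23, adjusted p = 0.204), and *Jam3* was called lower with the replicate block (adjusted p = 0.0376). With cytokines and NMMA, *Jam2*, a junctional adhesion molecule, was called higher there against untreated (1.14 ± 0.25, adjusted p = 0.00703). In β-cells 6 of 12 were higher with cytokines (*F11r*, *Alcam*, *Nectin2*, *Cd47*, *Epcam* and *Cdh1*) and 3 lower, where 23.7% of all genes were called higher and 22.4% lower. The highest change was that of *F11r*, which encodes the tight junction protein JAM-A (2.13 ± 0.40, adjusted p = 0.00535). *F11r* was also called higher in α-cells (1.95 ± 0.37) and δ-cells (2.25 ± 0.47). In α-cells 2 of 11 genes were higher, the other being *Cdh1*, and 2 lower, *Esam* and *Ncam1*. Of all genes in α-cells, 13.8% were called higher and 9.52% lower. In δ-cells 2 of 12 were higher, against 4.57% of all genes. The genes lower in β-cells were *Esam*, an adhesion molecule of endothelial junctions (-2.66 ± 0.30), *Jam2* (-1.24 ± 0.23) and *Ncam1*, the neural cell adhesion molecule (-0.97 ± 0.12). *Esam* is one of the endothelial markers, whose sum in β-cells fell from 5.47 to 5.83 CPM untreated to 1.44 to 1.45 with cytokines. Between cytokines with and without NMMA, *Nectin2* (0.90 ± 0.15), *Cd47* (0.69 ± 0.15) and *Esam* (1.31 ± 0.33) were called higher with NMMA in β-cells, and *Cd47* (0.81 ± 0.19) and *Alcam* (0.65 ± 0.20) in α-cells. DESeq2 called at most 2 of these 3 in β-cells and at most 1 of these 2 in α-cells. Against untreated, cytokines with NMMA gave higher *F11r*, *Nectin2* and *Cd47* in β-, α- and δ-cells, with *Alcam* and *Epcam* also higher in β-cells. Lower in that comparison were *Jam2*, *Esam* and *Ncam1* in β-cells, *Jam2* (-1.96 ± 0.57) in δ-cells, and *Cadm1*, a cell adhesion molecule of the immunoglobulin family, in α-cells (-0.75 ± 0.23) and δ-cells (-1.10 ± 0.21). DESeq2 did not call *Cadm1* lower in α-cells and called at most 1 of the 2 genes lower in δ-cells. Of the genes higher in that comparison, it called at most 2 of the 3 in α- and in δ-cells. Mesenchymal cells (7 tested) and macrophages (4) showed no call. In δ-cells *Mcam* was called higher with cytokines (8.48 ± 1.65), and *Mcam* (-8.48 ± 1.63) and *Cadm1* (-1.27 ± 0.28) were called lower when NMMA was added. These values rest on the library of 12 cells and carry no error of their own for cytokines. With 1 library in that group, a gene can pass the filter on low counts through that library alone. The *Mcam* changes are therefore a description and not a test. With cytokines DESeq2 called at most 1 of *F11r* and *Mcam* higher in δ-cells. DESeq2 called neither *Mcam* nor *Cadm1* lower in δ-cells when NMMA was added.

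Of the enzymes that build selectin ligands, *St3gal4*, a sialyltransferase, was called higher with cytokines in endothelial cells (1.22 ± 0.34, adjusted p = 0.0401, not called by DESeq2 with an adjusted p of 0.469). There 1 of 5 tested was called, against 4.65% of all genes higher. *St3gal4* was also called higher with cytokines in β-cells (1.54 ± 0.41, adjusted p = 0.0141). With cytokines and NMMA it was called higher in endothelial cells (1.65 ± 0.32), though not by DESeq2. In β-cells *B3gnt3*, which extends the core of such glycans, was also higher (1.17 ± 0.15, adjusted p = 0.000299). This made 2 of 6, in a class where 23.7% of all genes were called higher. With NMMA added to cytokines, *Fut4* (1.99 ± 0.27), *Gcnt1* (1.68 ± 0.51) and *B3gnt3* (0.96 ± 0.14) were called higher in β-cells, and *B3gnt3* in α-cells (2.64 ± 0.56). Against untreated, cytokines with NMMA gave higher *Fut4*, *Gcnt1* and *B3gnt3* in β-cells, and higher *B3gnt3* in α-cells (2.10 ± 0.45) and δ-cells (3.68 ± 0.71). DESeq2 called at most 2 of the 3 in β-cells in either comparison, and did not call *B3gnt3* in α- or δ-cells. No enzyme of the list was called with cytokines in α-, δ- or mesenchymal cells or macrophages.

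Over the 48 sums of class and library, the genes whose log2 levels followed *Icam1* most closely were *Gbp9* (Pearson r = 0.938) and *Gbp3* (0.935), both interferon-induced guanylate binding proteins. For *Icam2* they were *Fam167b* (0.980), *Tie1* and *Cd34* (0.979 each), and for *Pecam1* *Cdh5* (0.917), *Tie1* (0.914) and *Fam167b* (0.913). For *Vcam1* they were *Pla2g4a* (0.929), *Prdx1* (0.928) and *Slc11a1* (0.925). The sums share libraries and differ in depth, 10750 genes were compared, and the values describe likeness across these sums only.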

How the data were processed

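Dissociated islet cells were sequenced as 8 droplet libraries. The authors deposited UMI counts, not normalized, from Cell Ranger 3.0.0 (replicate 1) and 6.0.0 (replicate 2) per the file headers, on mm10 per the submitters' processing notes. Barcodes with at least 200 genes, at most 5500 (replicate 1) or 6500 (replicate 2) genes and at most 10% mitochondrial UMIs were kept, 10876 of 17426. They were clustered with scanpy 1.11.5 (2000 variable genes without the 7 members, 30 components, Leiden resolution 1) and named from marker genes. A caller marked 200 as doublets, which were kept and removed in an alternative. A rule asking for 2 markers in clusters of few UMIs was chosen after the data were seen.

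UMIs were summed per class and library. All 4 conditions of a class entered 1 fit in edgeR 4.0.16 (filterByExpr, TMM, robust quasi-likelihood test, Benjamini-Hochberg over all genes tested, threshold 0.05), leaving out sums of fewer than 10 cells. SE is the log2 change over the root of F. Interaction fits of 2 classes had the library as a block. Alternatives were DESeq2 1.42.0, total UMI scaling, no filter on low counts, other cell minimums, finer clusters, the replicate block and leaving out each library. The edgeR test of cytokines against untreated was tried on simulated counts with 4-fold changes. It recovered 30.7% of them in mesenchymal, 35% in δ-, 74.5% in endothelial, 83.5% in α- and 89.8% in β-cells and 81.2% in macrophages. The interaction and DESeq2 fits were not tried in this way. Shares carry 95% Clopper-Pearson intervals. These, the count ratios and the limits of 3 UMIs for a count of 0 cover counting error only, and thinning left out shallower cells (21 of 282 endothelial, 19 of 220 mesenchymal, 463 of 6350 β-, 94 of 646 α-, 38 of 334 δ-cells and 49 of 324 macrophages). Levels are CPM of the sum. Relative to TMM this scaling moved the median of all genes with cytokines by -0.20 (endothelial), -0.21 (mesenchymal), -0.22 (β), -0.48 (α), 0.03 (δ) and -0.11 (macrophages) on the log2 scale.

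Libraries of 1 replicate number come from 1 pool of islets, and in β-cells their deviations from the condition means correlated with r of 0.606 to 0.701. Members and gene lists were chosen with earlier results of these data known. Named were the 7 members, the genes of the 3 adhesion lists past the threshold or, where none was, the 2 with the lowest p, and the 3 genes most like each member of at least 500 UMIs. Of the genes that check the response, which the rule also covered, *Irf1* is given. One gene, and the list counts that include it, are not reported here.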

Additional observations from a re-analysis of the deposited data

Results flagged for a closer look

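Responses of the same gene to the same treatment differed between cell classes, by a test of the difference itself, in 7 cases. The tests of NMMA added to cytokines were chosen after the values had been seen. In these comparisons the share of all genes that differed ran from 0.874% (macrophages, NMMA added) to 6.3% (endothelial cells, cytokines). The log2 change of *Icam1* with cytokines was smaller than in β-cells in endothelial cells (difference -5.37) and in macrophages (-5.83). For *Icam1*, the log2 change when NMMA was added to cytokines was higher than in β-cells in endothelial cells (1.42), α-cells (1.24), δ-cells (2.31, with 1 cytokine library) and macrophages (1.83), and that of *Pecam1* was lower in endothelial cells than in β-cells (-2.06). The untreated *Icam1* level, against which the cytokine responses are measured, was 28.2 CPM in endothelial cells, 13.3 in macrophages and 0.686 in β-cells.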

How the results depend on the processing

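Of results that answer a comparison, 399 alternative values kept their call or moved by less than the spread, 36 lost the call and 33 moved. Leaving out 1 library at a time, the number of calls among the 7 genes ran from 4 to 8 (cytokines), 7 to 9 (cytokines with NMMA) and 0 to 3 (between them), 4 being reached without untreated replicate 2 and 0 without cytokines replicate 1 or cytokines with NMMA replicate 2, and the number of differing responses from 2 to 3 and from 3 to 5. Ranges of the log2 change for calls lost on the way were 0.74 to 1.37 and 0.98 to 1.30 (*Icam2*, endothelial cells, cytokines without and with NMMA), 4.59 to 8.77 (*Icam1*, mesenchymal cells), 1.49 to 3.82 (*Icam1*, macrophages), -1.61 to -1.06 and 1.39 to 2.19 (*Icam1* and *Pecam1*, β-cells, NMMA added), 2.78 to 3.36 (*Pecam1*, δ-cells), and, as differences from β-cells in endothelial cells, 0.70 to 2.10 (*Icam1*) and -2.62 to -1.44 (*Pecam1*). Uncalled changes that turned sign ran from -0.26 to 0.66, -1.65 to 0.64 and -0.55 to 0.47 (*Icam1* with NMMA added, endothelial, mesenchymal and α-cells), -0.23 to 0.40 (*Icam2*, endothelial cells), -0.40 to 2.91 (*Vcam1*, mesenchymal cells), and -4.56 to 5.08, -0.0533 to 1.66 and -2.38 to 1.51 (*Icam1* differences, mesenchymal from β-cells for cytokines and for NMMA, macrophages from endothelial cells).

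DESeq2 gave 1.07 for *Icam2* and lost its call, as it did for *Pecam1* in δ-cells (3.25) and *Icam1* in macrophages (2.40). Total UMI scaling lost *Icam2* (0.88, and 0.89 with NMMA) and *Icam1* in mesenchymal cells (5.54) and turned *Icam1* in α-cells with NMMA added to 0.32. A minimum of 20 cells gave 0.74 for *Icam2* and turned *Pecam1* in endothelial cells with NMMA added to 0.0545. No filter gave 4 calls between the cytokine conditions. Without the library block 1 response differed, with 1.37, 1.19, 2.29 and 1.80 for *Icam1* in endothelial, α-, δ-cells and macrophages. The cause of these changes was not tested.

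With the replicate block, which the shared pools justify, 9, 9 and 3 tests were called. It added *Icam1* in mesenchymal cells with cytokines and NMMA (5.43), *Pecam1* in β-cells (0.97) and *Vcam1* in macrophages (0.87) with cytokines, and *Icam1* in δ-cells with NMMA added (0.88), and changed no other call among the 7 genes.

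Shares moved with depth. Unthinned and at 1000 UMIs, *Icam1* shares were 73.6 and 24.1% (endothelial, cytokines), 80.2 and 12.1% (with NMMA), 60.8 and 15.0% (β, cytokines), 50.1 and 7.41% (with NMMA), 40.8 and 1.61% (macrophages, cytokines) and 45.5 and 7.95% (with NMMA). They were 63.1 and 20.4% in α- and 95.8 and 33.1% in δ-cells with NMMA, 14.8 and 16.7% at 1000 UMIs with cytokines alone, and 47.1 and 43.2% unthinned in mesenchymal cells with cytokines without and with NMMA. Untreated endothelial shares were 71.0 and 18.5% (*Icam2*) and 100 and 58.7% (*Pecam1*), and that of *Pecam1* in β-cells with cytokines and NMMA 7.88 and 0.61%.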
